A study of Arabidopsis thaliana with 12 samples.

Results

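miR172 was read from the 8 bins of 100 bp, of 152484 listed, that carry an ath-miR172 name with a locus letter. Together they cover the 5 MIR172 loci of Arabidopsis thaliana, and 369 bins in all carry a mature miRNA name. Small RNA was sequenced from inflorescences in 12 libraries, 3 biological replicates in each of 4 groups: the mutants heso1-1, urt1-1 and ntp4-1 and the wild type Col-0. All plants were grown untreated at 22 °C in long days, 16 h of light, and the ecotype on every label is Col-0. The series concerns NTP4 and the 3p and 5p strands of the miRNA duplex. Values are RPM, reads scaled by the authors to the depth of each library, and the miR172 bins held between 72 and 10112 reads per library.

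miR172 is a plant microRNA that represses a small group of AP2-like transcription factors, both by cleavage of their mRNA and by blocking their translation. In leaves and apices it rises as plants age, opposite to miR156, and its targets TOE1, TOE2, SMZ and SNZ delay flowering. In the flower it limits APETALA2 (AP2), the factor that specifies sepals and petals and restrains the stamen and carpel gene AGAMOUS. Each precursor is a hairpin, and the strand that enters Argonaute as the guide comes from its 3p side. HESO1 and URT1 are enzymes that extend unprotected RNA 3' ends with uridines, among them miRNAs without a 3' methyl group.

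The mature sequences decide which loci can be told apart, so they are shown here with the seed, bases 2 to 8, in capitals. They were taken from the RefSeq annotation of TAIR10.1, and all 422 miRNA names in the authors' bins overlapped the RefSeq mature sequence of that name in that build.
miR172a: aGAAUCUUgaugaugcugcau
miR172b-3p: aGAAUCUUgaugaugcugcau
miR172c: aGAAUCUUgaugaugcugcag
miR172d-3p: aGAAUCUUgaugaugcugcag
miR172e-3p: gGAAUCUUgaugaugcugcau
miR172b-5p: gCAGCACCauuaagauucac
miR172e-5p: gCAGCACCauuaagauucac
miR172d-5p: gCAACAUCuucaagauucaga
All 5 guide strands share the seed GAAUCUU. Relative to miR172a, with positions counted from the 5' end, miR172c and miR172d-3p differ by U21G and miR172e-3p by A1G. miR172a and miR172b-3p are identical, as are miR172c and miR172d-3p, so each of these sequences matches 2 places in the nuclear genome. How reads with several matches were placed is not given in the sources used here, so the split within each pair is uncertain, and the pairs are also given as sums. miR172e-3p matches 1 place only.

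The precursors of miR172b and miR172e are shown because their 5p arms are identical and because the arms of miR172e fall mostly in separate bins. The annotated arms are in capitals.
MIR172b: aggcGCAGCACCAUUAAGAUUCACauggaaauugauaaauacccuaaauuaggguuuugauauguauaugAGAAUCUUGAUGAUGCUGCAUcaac
MIR172e: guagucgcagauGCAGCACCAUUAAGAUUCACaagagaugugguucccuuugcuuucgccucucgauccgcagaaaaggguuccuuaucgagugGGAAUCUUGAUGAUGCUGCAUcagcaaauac
MIR172a (AT2G28056) lies on the minus strand of chromosome 2, and its bin is chr2:11942901-11943000. MIR172b (AT5G04275), on the minus strand of chromosome 5, has both arms in the bin chr5:1188201-1188300. MIR172c (AT3G11435), on the minus strand of chromosome 3, has bins at chr3:3599701-3599800 and chr3:3599801-3599900, because its mature sequence crosses the edge between them. MIR172d (AT3G55512), on the plus strand of chromosome 3, has both arms in chr3:20587901-20588000, and the end of its 3p arm reaches chr3:20588001-20588100. MIR172e (AT5G59505), on the plus strand of chromosome 5, has its 5p arm mainly in chr5:23988401-23988500 and its 3p arm in chr5:23988501-23988600. Bins carry no strand, so the strands named are those of the RefSeq genes.

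miR172d had the highest mean level of the 5 loci in Col-0, and no locus separated any mutant from Col-0. The level of every locus varied far more between libraries of the same group than between groups. miR172d measured 52.8, 205.2 and 189.4 RPM in heso1-1 and 38.2, 215.6 and 23.1 RPM in urt1-1. It measured 5.93, 220.6 and 224.9 RPM in ntp4-1, and 20.3, 138.7 and 147.0 RPM in Col-0, each in the order replicate 1, 2 and 3. Replicate 1 was the lowest library of heso1-1, ntp4-1 and Col-0 and replicate 3 the lowest of urt1-1, and all groups overlapped. miR172c, which has the same mature sequence, measured 4.23, 159.0 and 352.0 RPM in heso1-1 and 12.4, 93.6 and 1.04 RPM in urt1-1. It measured 1.19, 76.8 and 72.0 RPM in ntp4-1 and 5.39, 57.1 and 23.3 RPM in Col-0. The low libraries were the ones that were low for miR172d.

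miR172a measured 10.03, 89.4 and 1725 RPM in heso1-1 and 8.64, 234.0 and 3.89 RPM in urt1-1. It measured 0, 123.4 and 73.5 RPM in ntp4-1 and 5.66, 91.5 and 54.2 RPM in Col-0. In ntp4-1 replicate 1, no read of miR172a in that library allows a level of up to 0.395 RPM, which is 3 reads and covers counting error only. That bound does not cover how reads were placed, since the miR172b bin, with the same guide sequence, held 2.37 RPM in that library. miR172b measured 4.12, 70.9 and 1189 RPM in heso1-1 and 7.35, 75.5 and 0 RPM in urt1-1. It measured 2.37, 41.7 and 69.1 RPM in ntp4-1 and 4.68, 26.6 and 18.2 RPM in Col-0. For both loci heso1-1 replicate 3 lay far above the other 11 libraries. miR172e, with its arms summed, had the lowest mean of the 5 loci in every group, and measured 1.45, 14.1 and 206.8 RPM in heso1-1 and 1.29, 15.4 and 0.519 RPM in urt1-1. It measured 0, 13.4 and 9.51 RPM in ntp4-1 and 0.180, 6.59 and 5.43 RPM in Col-0. miR172e again had its highest value in heso1-1 replicate 3.

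In Col-0 the order of the mean levels was miR172d (102 ± 70.9 RPM), miR172a (50.5 ± 43.1), miR172c (28.6 ± 26.2), miR172b (16.5 ± 11.1) and miR172e (4.06 ± 3.41; SD, n = 3 each). The same order held within each of the 3 Col-0 libraries. The SDs, which describe the spread between libraries, overlapped for all neighbours in that order. The mature sequences are of nearly the same length, but the values are sums of bins. Those of miR172b, miR172d and miR172e include both named arms, while the bins of miR172a and miR172c carry only the name of the guide strand. Levels of the loci can be set side by side only within this limit and the limit on identical sequences.

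**Figure D1:**
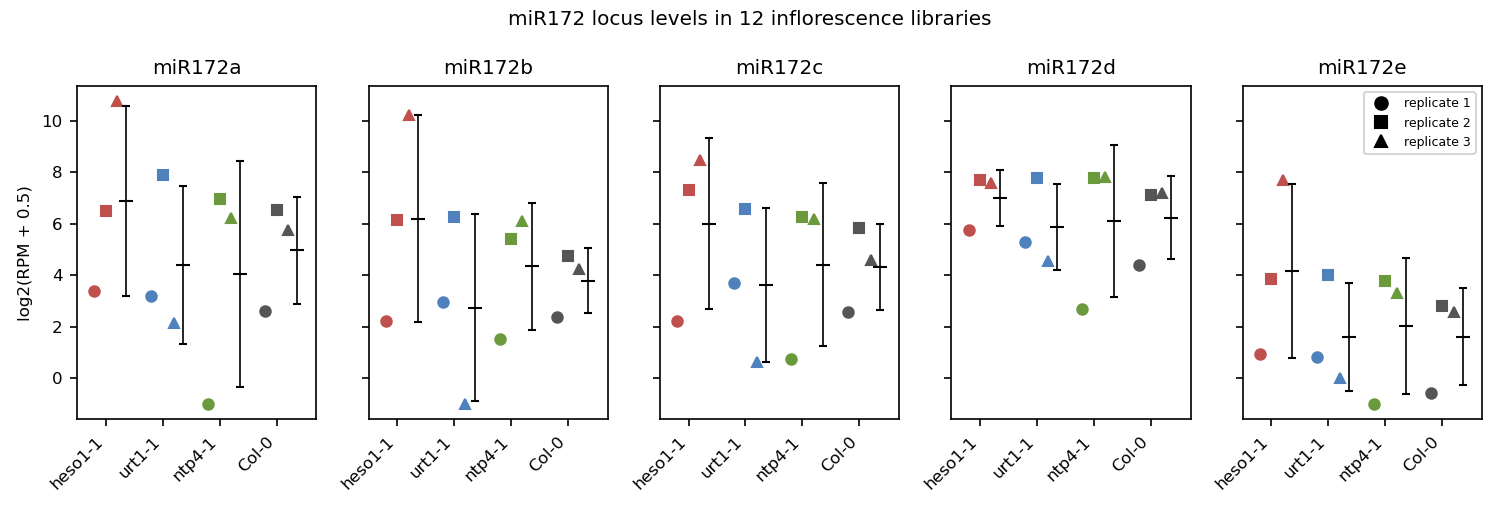
Level of each MIR172 locus in each library as log2(RPM + 0.5), with 1 panel per locus. Colours are groups, marker shapes are replicate numbers, and the bar beside each group is the mean ± SD of its 3 libraries. Replicate 1 sits low in every panel, and heso1-1 replicate 3 is the highest point of every locus except miR172d.

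The 8 bins summed gave 72.7, 538.6 and 3662 RPM in heso1-1 and 67.8, 634.1 and 28.5 RPM in urt1-1. The sum was 9.48, 475.9 and 449.0 RPM in ntp4-1 and 36.2, 320.6 and 248.1 RPM in Col-0. In 5 libraries the family was between 9.48 and 72.7 RPM, and in the other 7 it was between 248.1 and 3662 RPM. The low ones were replicate 1 of all 4 groups and urt1-1 replicate 3. Group means were 1424 ± 1952 RPM in heso1-1, 243.5 ± 339 RPM in urt1-1, 311 ± 262 RPM in ntp4-1 and 201.7 ± 148 RPM in Col-0 (SD, n = 3 each). The SD exceeded the mean in heso1-1 and urt1-1, and all groups overlapped. Among 185 miRNA families the rank of miR172 ranged between 5, in heso1-1 replicate 3, and 32, in ntp4-1 replicate 1.

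miR156 and miR157, which share targets and act ahead of miR172 in the age pathway, served as a second family in the same libraries. Their summed bins measured 261.3, 310.1 and 149.2 RPM in heso1-1 and 193.3, 252.1 and 157.8 RPM in urt1-1. The sums were 82.0, 262.8 and 247.2 RPM in ntp4-1 and 148.9, 294.6 and 242.2 RPM in Col-0. The highest library of miR156 and miR157 was 3.78-fold above the lowest, against 386-fold for miR172. heso1-1 replicate 3, the highest library for miR172, was below every other library for miR156 and miR157 except ntp4-1 replicate 1 and Col-0 replicate 1.

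**Figure D2:**
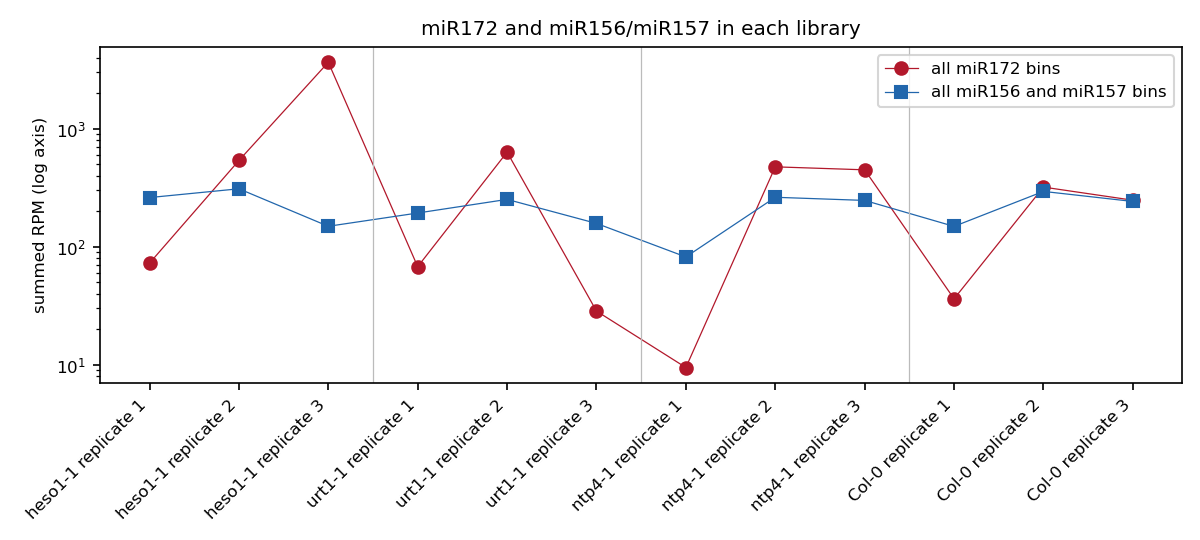
Summed RPM (log axis) of the miR172 bins and of the miR156 and miR157 bins in each of the 12 libraries. Lines only join the points of a family within the row of libraries, and replicates have no order. The miR172 points span 386-fold and the miR156 and miR157 points 3.78-fold.

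The spread within groups was also large when set beside that of other miRNAs. Over the 4 groups, the pooled within-group SD of log2(RPM + 0.5) was 3.41 for miR172a, 3.04 for the miR172b bin and 2.92 for the lower miR172c bin. These ranked 2, 3 and 5 among 260 miRNA bins. The values were 2.57 for the miR172e-3p bin (rank 11), 1.98 for the miR172d bin (rank 20) and 1.27 for the miR172e-5p bin (rank 81), against a median of 0.996 over miRNA bins and 0.719 over 39149 bins of any kind.

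The make-up of the family varied between libraries, and the highest share of miR172a and miR172b was in heso1-1 replicate 3. miR172a and miR172b together held 79.6% of the miR172 RPM in heso1-1 replicate 3. In the other 11 libraries they held between 13.6%, in urt1-1 replicate 3, and 48.8%, in urt1-1 replicate 2. miR172d alone held 5.17% in heso1-1 replicate 3, and between 34.0% and 80.9% elsewhere. The summed level of miR172c and miR172d, whose guide strands carry U21G, was 541.4 RPM in heso1-1 replicate 3 and 364.2 RPM in heso1-1 replicate 2. The bins of miR172a and miR172b summed to 2914 RPM in heso1-1 replicate 3 and 160.3 RPM in heso1-1 replicate 2. The excess of heso1-1 replicate 3 thus lay mostly in the bins of miR172a and miR172b. The miR172b and miR172d bins hold both arms, so the level of a single sequence was not measured. heso1-1 replicate 3 was also the shallowest library, with 2761330 reads implied by its RPM steps, against up to 11191516 in heso1-1 replicate 2. The part of depth in this value was not tested.

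**Figure D3:**
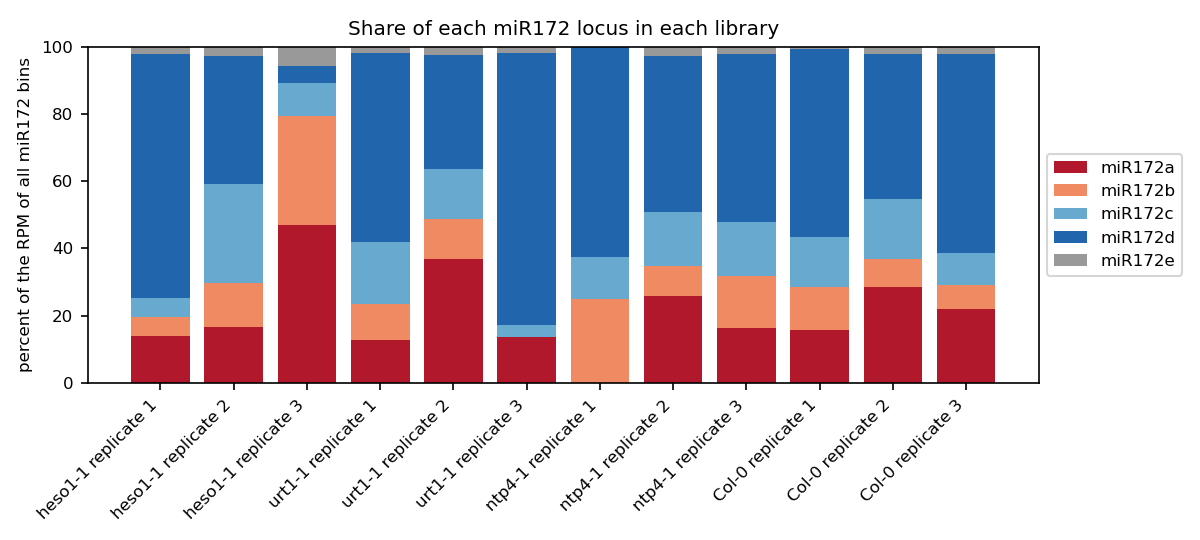
Percent of the summed miR172 RPM held by each locus in each of the 12 libraries, stacked to 100. miR172a (dark red) and miR172b (orange) fill 79.6% of heso1-1 replicate 3 and at most 48.8% of the other libraries, where miR172d (dark blue) holds 34.0% to 80.9%.

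The 2 strands could be separated only in part, since miR172b and miR172d have both arms in a single bin. The miR172e-5p bin, which holds 17 of the 20 bases of that arm, was low throughout. It measured 0.446, 1.70 and 9.05 RPM in heso1-1 and 0.129, 1.35 and 0.130 RPM in urt1-1. It measured 0, 2.63 and 0.183 RPM in ntp4-1 and 0, 1.10 and 0.603 RPM in Col-0. The miR172e-3p bin measured 1.00, 12.4 and 197.7 RPM in heso1-1 and 1.16, 14.1 and 0.389 RPM in urt1-1. It measured 0, 10.7 and 9.32 RPM in ntp4-1 and 0.180, 5.49 and 4.82 RPM in Col-0. The 3p bin was the higher one in all 11 libraries in which either had a read. As a percent of all miR172 RPM, the miR172e-5p bin was 0.392 ± 0.195% in heso1-1, 0.286 ± 0.146% in urt1-1, 0.198 ± 0.308% in ntp4-1 and 0.195 ± 0.176% in Col-0 (SD, n = 3 each). The difference to Col-0 was 0.197 percentage points for heso1-1, 0.0908 for urt1-1 and 0.00289 for ntp4-1, and each mutant overlapped Col-0. Within miR172e the 5p bin held 30.8, 12.0 and 4.38% in heso1-1 and 10, 8.77 and 25% in urt1-1. It held 19.7 and 1.92% in replicates 2 and 3 of ntp4-1 and 0, 16.7 and 11.1% in Col-0. The higher shares of heso1-1 replicate 1 and urt1-1 replicate 3 stood beside miR172e levels of 1.45 and 0.519 RPM, so they rest on few reads. The identical miR172b-5p sequence adds the same uncertainty of placement here.

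Of the 8 miR172 bins, 6 passed the filter for heso1-1 against Col-0, a mean of at least 1 RPM over the 6 libraries compared, and none passed the test. The miR172e-5p bin passed only through heso1-1, with a mean of 3.73 RPM in heso1-1 and 0.567 RPM in Col-0, so its direction was fixed by the filter and it is left out of the counts and medians below. The other 5 had higher mean log2 levels in heso1-1. limma on log2(RPM + 0.5), with Benjamini-Hochberg adjustment over the 43648 bins tested and a threshold of 0.05, called 0 of the 6, with no unadjusted p under 0.05. It called 23 of all bins (0.0527%). In 31.7% of all bins tested the log2 fold change was above 0. The log2 fold change was 2.49 for the miR172e-3p bin (SE 1.39, adjusted p = 0.775, 95% interval -0.54 to 5.52) and 2.41 for miR172b (SE 1.47, adjusted p = 0.787). It was 1.91 for miR172a (SE 1.47, adjusted p = 0.847), 1.74 for miR172c (SE 1.32, adjusted p = 0.844), 1.50 for the miR172e-5p bin (SE 0.78, adjusted p = 0.775) and 0.79 for miR172d (SE 0.75, adjusted p = 0.893). The median of the 5 was 1.91, against -0.23 over all bins. None of the tested members had groups that did not overlap, which 13.6% of all bins tested had. The upper miR172d bin, too low to be tested, held no read in the 3 heso1-1 libraries, and 14, 1 and 1 reads in Col-0.

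The values moved with single libraries in both directions. Without heso1-1 replicate 3 the median of the 5 was 0.51 and miR172a was at -0.03. Without heso1-1 replicate 1 the median was 3.65, with 4 of the 5 at an unadjusted p under 0.05 in limma and a smallest adjusted p of 0.118. Of all bins tested in that fit, 4865 of 46014 had an unadjusted p under 0.05. Without Col-0 replicate 1 the median of the 5 was 0.80. Set against Col-0 of the same replicate number, the family was 2.01, 1.68 and 14.8 times as high in heso1-1. miR172d was 2.60, 1.48 and 1.29 times as high, and miR172a 1.77, 0.977 and 31.8 times. With the replicate number as a block, limma called 14 of all bins in place of 23, and the adjusted p of the 5 members lay between 0.205 and 0.307. The unadjusted p was then under 0.05 for 3 of the 5, miR172c, miR172d and the miR172e-3p bin, and for 7638 of 43648 bins in all. edgeR's quasi-likelihood test on the reads recovered from the RPM called 0 of the 5. It gave an unadjusted p under 0.05 for 1 of them and for 1467 of 43648 bins in all.

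For urt1-1, 5 miR172 bins passed the filter and limma called none, with none at an unadjusted p under 0.05, against 78 of 41906 bins called in all (0.186%). The log2 fold change was -1.05 for miR172b (SE 1.47, adjusted p = 0.826), -0.70 for miR172c, -0.57 for miR172a, -0.36 for miR172d and -0.0038 for the miR172e-3p bin, whose 95% interval was -2.43 to 2.42. Their median was -0.57, against -0.40 over all bins, and 17.9% of all bins were above 0. The direction depended on single libraries. Without urt1-1 replicate 3 all 5 were above 0, with a median of 0.82, and without Col-0 replicate 2 it was 4 of the 5. Without urt1-1 replicate 2 the median was -2.20, with 3 of the 5 at an unadjusted p under 0.05 and none called. Of all bins tested in that fit, 5749 of 40582 had an unadjusted p under 0.05. Without Col-0 replicate 1 the median of the 5 was -1.64. Set against Col-0 of the same replicate number, the family was 1.87 and 1.98 times as high in urt1-1 replicates 1 and 2. In replicate 3 it was 0.115 times the Col-0 level. These numbers were not taken to pair the samples. edgeR on recovered reads called 0 of the 5 and put all 5 above 0, and with TMM scaling miR172d (0.11) and the miR172e-3p bin (0.35) were above 0. No member had groups that did not overlap, against 15.9% of all bins.

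For ntp4-1, limma called none of the 5 miR172 bins that passed the filter, with none at an unadjusted p under 0.05, against 30 of 39696 bins called in all (0.0756%). The log2 fold change was 0.56 for miR172b (SE 1.13, adjusted p = 0.772), 0.45 for the miR172e-3p bin, 0.06 for miR172c, -0.13 for miR172d and -0.92 for miR172a (SE 1.85, adjusted p = 0.773, 95% interval -5.06 to 3.22). The median of the 5 was 0.06, against -0.75 over all bins, and 3 of the 5 were above 0, against 11.4% of all bins. ntp4-1 replicate 1, which had the lowest miR172 level of the 12 libraries, also had the lowest summed miRNA bins, 9719 RPM against up to 52604 RPM in urt1-1 replicate 2. Without it all 5 bins were above 0, with a median of 1.91, 4 of the 5 at an unadjusted p under 0.05 and a smallest adjusted p of 0.0715, for miR172b. Of all bins tested in that fit, 10105 of 43631 had an unadjusted p under 0.05 and 2924 were called. The median was -0.91 without ntp4-1 replicate 2, -0.87 without ntp4-1 replicate 3 and -0.88 without Col-0 replicate 1. Leaving out Col-0 replicate 2 gave 0.85, and leaving out replicate 3 of Col-0 gave 0.37. Same-number ratios of ntp4-1 to Col-0 for the family were 0.262, 1.48 and 1.81. With the replicate block limma called 10933 of all bins in place of 30, but 0 of the 5 members, and miR172a had the smallest adjusted p, 0.165. With TMM scaling miR172d stood at 0.74 and with scaling to the summed miRNA bins at 0.56. Groups did not overlap for 29.1% of all bins and for no member. edgeR on recovered reads called 0 of the 5, with none at an unadjusted p under 0.05.

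**Figure D4:**
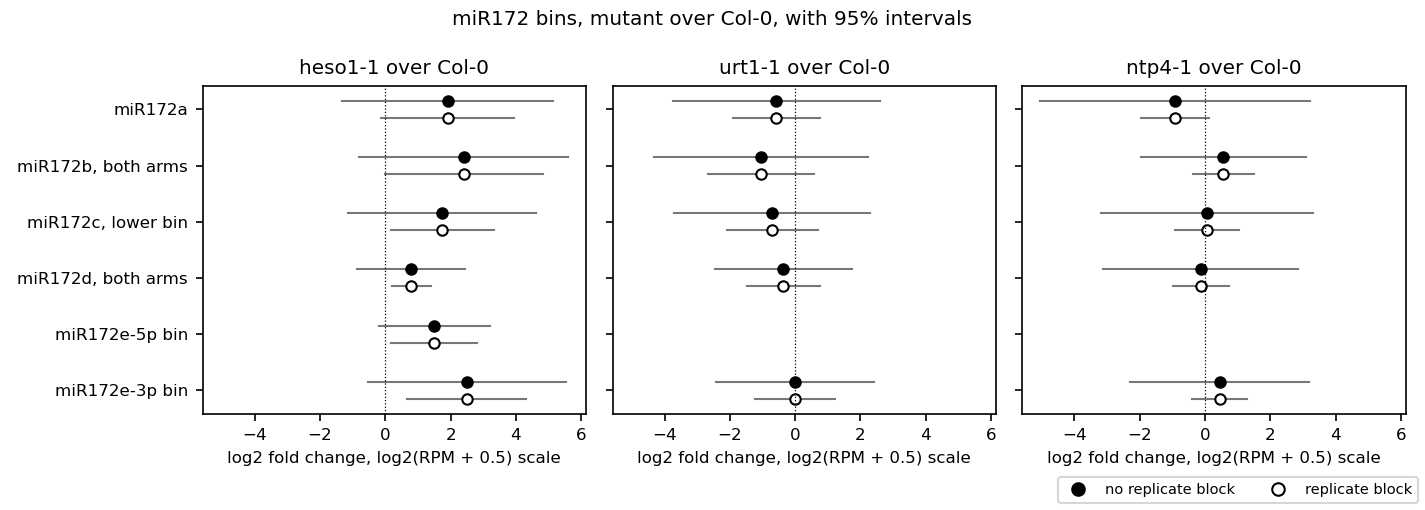
Log2 fold change of each tested miR172 bin in heso1-1, urt1-1 and ntp4-1 over Col-0, on the log2(RPM + 0.5) scale, with 95% intervals from limma. Filled points have no replicate block and open points have one. Every interval without the block includes 0, and with the block those of miR172c, miR172d and the miR172e-3p bin in heso1-1 lie above 0 before adjustment over all bins. The miR172e-5p bin, which passed the filter only through heso1-1, is drawn but not counted.

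As a share of all miRNA RPM, which does not depend on the scaling of a library, miR172 made up 0.247, 1.23 and 7.68% in heso1-1 and 0.212, 1.21 and 0.108% in urt1-1. It made up 0.0976, 1.51 and 1.37% in ntp4-1 and 0.135, 0.751 and 0.642% in Col-0. Group means were 3.05 ± 4.04% in heso1-1, 0.508 ± 0.606% in urt1-1, 0.991 ± 0.777% in ntp4-1 and 0.509 ± 0.329% in Col-0 (SD, n = 3 each), and all overlapped. An exact permutation test of 3 libraries against 3 cannot give a p below 0.10.

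The MIR172 loci varied together over the 12 libraries. Pearson's r of log2(RPM + 0.5) between the 10 pairs of loci lay between 0.782, for miR172b and miR172d, and 0.964, for miR172a and miR172e. The points share libraries and depth, and the identical sequences may share reads, so this is a description. Of 94 other miRNA loci that averaged 10 RPM or more, the 5 most like the miR172 sum were miR779 (r = 0.983), miR822 (0.981), miR160a (0.971), miR164a (0.959) and miR391 (0.950). The median r over the 94 was 0.684. miR160, which targets auxin response factors, measured 6.13, 22.5 and 56.5 RPM at miR160a in heso1-1 and 3.35, 24.6 and 0.778 RPM in urt1-1. It measured 0, 20.7 and 13.9 RPM in ntp4-1 and 1.08, 8.10 and 14.6 RPM in Col-0. miR164, which targets the CUP-SHAPED COTYLEDON genes of organ boundaries, measured 8.47, 39.9 and 60.8 RPM at miR164a in heso1-1 and 10.8, 44.1 and 3.76 RPM in urt1-1. miR164a measured 1.05, 28.0 and 33.1 RPM in ntp4-1 and 6.47, 34.7 and 27.5 RPM in Col-0. Both had their lowest level in ntp4-1 replicate 1 and their highest in heso1-1 replicate 3, as miR172 did.

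**Figure D5:**
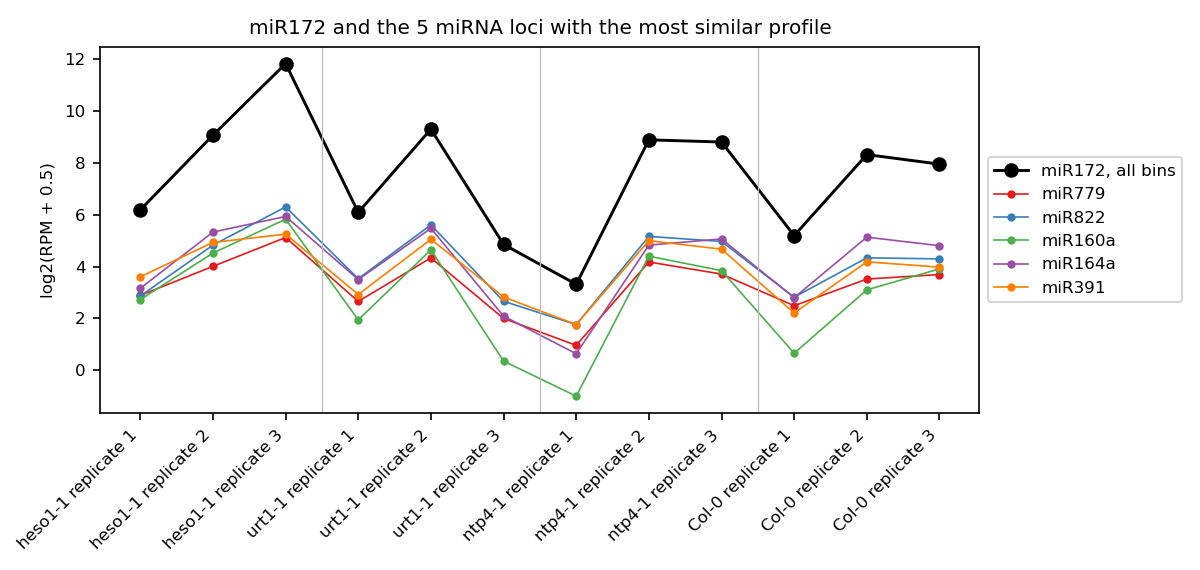
Level as log2(RPM + 0.5) of the summed miR172 bins and of the 5 miRNA loci with the highest Pearson r to them, in the 12 libraries. Lines only join the points of a locus. All 6 are lowest in ntp4-1 replicate 1 and highest in heso1-1 replicate 3.

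Inflorescences hold pollen, and all 3 pollen markers, miR845a, miR845b and miR2939, were detected in every library. Their summed level ranged from 126.4 to 2427 RPM in heso1-1, from 346.8 to 2072 RPM in urt1-1, from 288.5 to 853.4 RPM in ntp4-1 and from 1485 to 2854 RPM in Col-0. In all 4 groups the order of miR845a over the 3 libraries was the opposite of that of miR172. That order was not particular to this marker, since miR173, which is not among the 3, also had it in all 4 groups. Over the 12 libraries, Pearson's r with the miR172 sum was -0.734 for miR845a, -0.747 for miR5644 and -0.749 for miR173. miR845a measured 1813, 635.1 and 73.9 RPM in heso1-1 and 1473, 162.6 and 1478 RPM in urt1-1. It measured 611.4, 137.0 and 399.6 RPM in ntp4-1 and 2306, 1026 and 1084 RPM in Col-0. miR845b had the opposite order in 2 of the 4 groups and miR2939 in none of them. miR2939 was at most 7.24 RPM, and its 0.0899 RPM in Col-0 replicate 1 was the worth of 1 read. Its detection and its order therefore rest on few reads. The part of pollen in the miR172 levels was not tested. In bulk tissue, fewer cells that carry miR172 and less miR172 per cell cannot be told apart. Chloroplast bins, which stand for green tissue, averaged 34953 RPM in heso1-1, 40696 RPM in urt1-1, 56508 RPM in ntp4-1 and 38212 RPM in Col-0.

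The 6 AP2-like target genes each carry a site in their coding sequence. A read in a bin of 100 bp that overlaps a site need not lie on the site itself. The sites are shown because they are the stretches that pair with miR172. They were found by search of the annotated TAIR10.1 transcripts, and all 6 lie wholly in coding sequence. Capitals mark bases that are the Watson-Crick complement of miR172a.
AP2: cUGCAGCAUCAUCAgGAUUCU
TOE1: caGCAGCAUCAUCAgGAUUCU
TOE2: AUGCAGCAUCAUCAgGAUUCU
TOE3: ugGCAGCAUCAUCAgGAUUCU
SMZ: uUGCAGCAUCAUCAgGAUUCc
SNZ: uUGuAGCAUCAUCAgGAUUCc
The sites differ from a full complement at 1 base in TOE2, which is a G-U pair, and at 4 in SNZ, and at 2 or 3 in the others. The AP2 site is at chr4:17403019-17403039 and the TOE2 site at chr5:24210889-24210909, both on the plus strand. Only AP2 and TOE2 had a listed bin, and each had one that overlaps its site. The TOE2 bin, chr5:24210801-24210900, was the only listed bin of that gene. It held 0, 0 and 21 reads (7.61 RPM in replicate 3) in heso1-1 and 0, 3 and 1 reads in urt1-1. It held 0, 4 and 1 reads in ntp4-1 and 3, 4 and 1 reads in Col-0. heso1-1 replicate 3, the library with the most miR172, was the only one above 4 reads. The AP2 site bin, chr4:17403001-17403100, held 3, 10 and 3 reads in heso1-1 and 2, 8 and 2 reads in urt1-1. It held 0, 2 and 7 reads in ntp4-1 and 3, 1 and 8 reads in Col-0, with no separation of groups. For Col-0 replicate 3 these reads are RPM divided by the worth of 1 read, rounded.

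Over the whole gene, AP2 had 7 listed bins, which summed to 1.45, 1.43 and 3.62 RPM in heso1-1 and 2.06, 5.68 and 1.69 RPM in urt1-1. They summed to 1.32, 1.22 and 3.47 RPM in ntp4-1 and 2.43, 2.47 and 4.62 RPM in Col-0. limma over all loci did not call AP2 in heso1-1 (log2 fold change -0.51, adjusted p = 0.594), urt1-1 (-0.12, adjusted p = 0.890) or ntp4-1 (-0.62, adjusted p = 0.359). TOE2 passed the filter for heso1-1 only and was not called by limma (0.69, adjusted p = 0.765). It passed through heso1-1 replicate 3, at 7.61 RPM, with 0 RPM in replicates 1 and 2 and a Col-0 mean of 0.306 RPM. The filter thus favoured a value above 0, and the fold change of TOE2 rests on that library. Of the 30 pathway genes listed, 6 had a bin: 2 of 6 targets, 1 of 7 upstream regulators and partners (SPL10), 0 of 7 floral genes and 3 of 10 genes of the small RNA machinery (DCL1, AGO1 and AGO10). DCL1 cuts miRNA precursors, AGO1 is the main miRNA effector, and AGO10 acts in floral and shoot meristems. None of the 3 was called in any mutant, against 4 of 6354 loci in heso1-1 (0.063%), 26 of 6333 in urt1-1 (0.411%) and 2 of 6168 in ntp4-1 (0.0324%). These are small RNA reads over the genes and not mRNA levels. No listed bin carried HESO1 or URT1, so these values do not check those genotypes, and NTP4 was not looked up because the labels give it no gene identifier.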

How the data were processed

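Inflorescence small RNA was measured in 12 libraries; total RNA was extracted with TRIzol, treated with DNase I and prepared with a NEBNext small RNA kit, per the labels' protocols. The authors deposited RPM (reads scaled by sequencing depth) per bin of 100 bp with an annotation column, which was used as it stands; 0 columns of values were left unused. The listed bins hold 28.7% to 67.5% of the reads implied by the scaling, so part of each library is not analysed here. The sources used here give no aligner, genome build or rule for reads with several matches. In 11 libraries 100% of values were whole multiples of the worth of 1 read within a tolerance of 1e-06, which implies 2761330 to 11191516 reads. Col-0 replicate 3 was also at 100%, but it was left out by an earlier list of usable libraries and not by this rule. It is absent from tests on reads. Of 17 mature miRNAs that cross a bin edge, alone in their bins and at a mean of 10 RPM or more, 86.2% of the RPM lay in the lower bin, so reads were not shared evenly between such bins.

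Each mutant was compared with Col-0 by limma 3.58.1 with trend (R 4.3.3) on log2(RPM + 0.5), over all bins or loci that averaged 1 RPM or more in the 6 libraries compared, two-sided, with Benjamini-Hochberg adjustment over all of them. Fold changes on that scale understate the change of low bins. Recovered reads were tested with edgeR 4.0.16, which called 0 bins in heso1-1, 1 in urt1-1 and 0 in ntp4-1. Both were also run on simulated counts with a fixed dispersion and no outlying library. That run does not show how they behave at the spread of the miR172 bins. Alternatives were pseudocounts of 1 and 0.1, no filter, TMM scaling, scaling to the summed miRNA bins, a replicate block and leaving out each library. The labels call the replicates biological but name no shared batch. Deviations from the group means correlated at 0.177 to 0.549 between heso1-1 and Col-0 libraries of the same number. For ntp4-1 and Col-0 the range was 0.326 to 0.650. In both mutants replicate 1 had a positive correlation with Col-0 replicate 1 only. Different numbers could correlate more highly, since heso1-1 replicate 3 reached 0.236 and ntp4-1 replicate 3 reached 0.382 with Col-0 replicate 2. The main test did not pair the samples by number, and the block was an alternative. Intervals and floors cover counting error only or the spread between 3 libraries.

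The members, gene lists and tests were chosen with earlier results of these data known. The text names all member bins, the 5 other miRNA loci that averaged 10 RPM or more and had the highest Pearson r with the summed miR172 bins, and the listed pathway genes that have a bin. Loci sum the bins that carry their name.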

Additional observations from a re-analysis of the deposited data

How the results depend on the processing

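None of the 231 fits of a miR172 bin, over the main test and 13 alternatives in each comparison, passed the threshold. TMM scaling moved the median log2 fold change of all bins to -0.04 for heso1-1, -0.02 for urt1-1 and -0.10 for ntp4-1, against -0.23, -0.40 and -0.75 as deposited, so the deposited RPM place most bins lower in the mutants. Directions that turned round under TMM scaling were, for urt1-1, miR172d (0.11), the miR172e-3p bin (0.35), AP2 (0.22) and DCL1 (0.027), for ntp4-1, miR172d (0.74), AP2 (0.086) and DCL1 (0.14), and for heso1-1, AGO1 (0.27). Scaling to the summed miRNA bins turned miR172d (0.56) and DCL1 (0.0090) in ntp4-1. edgeR on reads, without Col-0 replicate 3, turned miR172a (0.98), miR172b (0.97), miR172c (0.45), miR172d (0.54), the miR172e-3p bin (1.13), AP2 (0.59) and DCL1 (0.059) in urt1-1, miR172a (1.06), miR172d (1.50), AP2 (0.44) and DCL1 (0.16) in ntp4-1, and AGO1 (0.26) in heso1-1. Pseudocounts of 1 and 0.1 put the miR172e-3p bin of urt1-1 at 0.0068 and 0.061, and 0.1 put miR172c of ntp4-1 at -0.052. The cause of these turns was not tested.

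Leaving out 1 library at a time gave 6 fits of a bin or locus, or fewer where it then failed the filter. The miR172e-5p bin in heso1-1 had 5 fits, with none without heso1-1 replicate 3, in which it measured 9.05 RPM. AGO10 had 5 fits in heso1-1 and 4 in urt1-1. The ranges of log2 fold change below are over the fits that were made. In heso1-1 they were -0.030 to 3.65 for miR172a, 0.40 to 4.40 for miR172b, 0.51 to 3.63 for miR172c, 0.66 to 4.18 for the miR172e-3p bin, 1.03 to 2.26 for the miR172e-5p bin, -0.17 to 1.42 for miR172d, -0.34 to 0.20 for AGO1 and -0.21 to 0.61 for AGO10. In urt1-1 they were -2.31 to 0.56 for miR172a, -2.80 to 0.82 for miR172b, -2.20 to 0.83 for miR172c, -1.32 to 0.30 for miR172d, -1.20 to 0.82 for the miR172e-3p bin, -0.58 to 0.17 for AP2 and -0.31 to 0.25 for AGO10. In ntp4-1 they were -2.37 to 1.61 for miR172a, -0.32 to 1.97 for miR172b, -0.91 to 1.96 for miR172c, -1.09 to 1.59 for miR172d and -0.57 to 1.91 for the miR172e-3p bin. The miR172 share of miRNA RPM in urt1-1 minus Col-0 was -0.000859 percentage points, 0.0103 as a percent of all listed bins, and -0.349 to 0.199 with a library left out. The 5p share difference then lay between -0.00675 and 0.164 for urt1-1 and between -0.175 and 0.102 for ntp4-1.

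Counts of called bins were 23 in heso1-1, 78 in urt1-1 and 30 in ntp4-1. They became 12, 46 and 2 at a pseudocount of 0.1, and 93, 152 and 143 with no filter. TMM scaling gave 15 in heso1-1 and 136 in urt1-1. edgeR gave 0, 1 and 0, with 1467, 1363 and 2262 at an unadjusted p under 0.05. Leaving out a library gave 12 to 30, 21 to 123 and 0 to 2924. Counts of called loci were 4 in heso1-1, 26 in urt1-1 and 2 in ntp4-1. In heso1-1 a pseudocount of 0.1 gave 1 in all, edgeR 2, and leaving out a library 2 to 9. In urt1-1 TMM scaling gave 70, scaling to miRNA bins 41, edgeR 8, and leaving out a library 9 to 33. In ntp4-1 pseudocounts of 1 and 0.1 gave 18 and 0, no filter 4, TMM scaling 65, scaling to miRNA bins 8, edgeR 0, and leaving out a library 0 to 474. The replicate block gave 14, 237 and 10933 bins in heso1-1, urt1-1 and ntp4-1, and 0 loci in heso1-1, with 1446 at an unadjusted p under 0.05 in limma, and 1143 loci in ntp4-1; it changed no call of a miR172 bin. In urt1-1 the same-number correlations with Col-0 were -0.277 to 0.444, and its numbers were likewise not taken to pair the samples. ntp4-1 replicate 1 held 72 reads of miR172, the fewest of the 12 libraries, so its single loci rest on few reads.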
